A study of Homo sapiens with 16 samples.

Results

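Nuclear receptors switch genes on or off by exchanging coactivators for corepressors, proteins that bring histone deacetylases and other chromatin enzymes to the receptor. The 9 genes described here encode such corepressors or subunits of their complexes: *NCOR1*, *TBL1X*, *TBL1XR1* and *HDAC3* of the NCoR complex, *SIN3A*, the paralogs *CTBP1* and *CTBP2*, and the ligand-dependent corepressors *NRIP1* and *LCOR*. They were taken by symbol from the deposited gene table, where each has 1 entry among 20531, and all 9 had enough counts to be tested in every comparison. SLIRP, the RNA-binding protein whose loss the study examined, is thought to act with such corepressors on the SRA RNA and is also known as a mitochondrial RNA-binding protein.

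The cells were LNCaP, a line from a human prostate cancer that responds to androgen. They received 40 nM siRNA for 24 h, either 1 nonsense sequence (NS) or 1 pool of 3 siRNAs against SLIRP, followed by 24 h without serum in ethanol vehicle (Veh) or 1 nM of the androgen dihydrotestosterone (DHT). RNA was sequenced from 4 libraries per group, namely NS-Veh and SLIRP-Veh without androgen and NS-1nM DHT and SLIRP-1nM DHT with it, which the study describes as 2 biological replicates from each of 2 experiments. Every library, controls included, came from 1 transfected cell line. With a single pool and no rescue, loss of SLIRP and any other effect of the pool cannot be told apart.

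Library totals lay between 436353 and 1689708 counts, and the 2 lowest of the NS-Veh group, replicates 1 and 2, had 512925 and 436353. Levels are given as CPM, estimated counts scaled to a common library size by the TMM method. *SLIRP* itself, listed under its older symbol *C14orf156*, lay between 45.1 and 63.4 CPM in the 8 NS libraries and between 1.41 and 8.04 CPM in the 8 SLIRP siRNA libraries, which matches the labels. All 9 luminal prostate markers checked, among them *KLK3*, *TMPRSS2*, *FOLH1*, *HOXB13*, *FOXA1*, *KRT8* and *KRT18*, were counted in every library. Of 7 markers of basal, stromal, blood and endothelial cells 5 were at 0 in all libraries and 1 was counted in every library. The summed level of these 7 lay between 5.64 and 21.9 CPM. The summed level of the luminal markers was lower with SLIRP siRNA, between 3511 and 4046 CPM against 4708 to 5294 CPM with NS. Over all libraries 5 of the 9 were called lower, against 17.4% of the 10167 genes tested, and 0 higher. The markers did not all move alike, since 2 of the 9 had a positive log2 fold change. In vehicle alone 6 were called lower and 1 higher, against 1063 lower and 1256 higher of all 10684 genes tested. In DHT alone 6 were called lower and 2 higher, against 1237 lower and 1370 higher of 10684. The part of the lower luminal sum in the differences given here was not tested. In RNA of whole cultures fewer cells expressing a gene and less RNA per cell cannot be told apart.

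The 9 genes include a pair of close paralogs in each of 2 complexes, so the first question was whether 50-base reads, the length used in the study, could tell them apart. The most alike 50-base stretches of the coding sequences are printed next in the direction of the mRNA, with the bases that differ between the paralogs in capitals. They were read from the hg19 transcripts of the GENCODE annotation.
CTBP1: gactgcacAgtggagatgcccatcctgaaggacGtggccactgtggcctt
CTBP2: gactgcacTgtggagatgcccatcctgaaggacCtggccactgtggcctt
TBL1X: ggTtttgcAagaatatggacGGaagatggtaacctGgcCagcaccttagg
TBL1XR1: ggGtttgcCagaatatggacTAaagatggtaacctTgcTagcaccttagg
The *CTBP1* stretch lies in coding exon sequence at chr4:1232008-1232057 (minus strand) and the *CTBP2* stretch at chr10:126691944-126691993 (minus strand), and they differ at 2 of 50 bases. The *TBL1X* stretch crosses an exon junction within chrX:9661225-9661383 (plus strand) and the *TBL1XR1* stretch one within chr3:176765164-176765301 (minus strand), and they differ at 6 of 50 bases. Neither pair shared an identical 50-base word in these coding sequences, with 0 found in each. A read from the *CTBP1* or *CTBP2* stretch would thus tell the paralogs apart by 2 bases only, while at the closest point *TBL1X* and *TBL1XR1* still differed by 6.

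Over all 16 libraries, 5 of the 9 genes passed the test between SLIRP siRNA and NS. *CTBP2* fell about 3-fold, *LCOR* and *TBL1X* fell less, and *NRIP1* and *HDAC3* rose, while *NCOR1*, *TBL1XR1*, *SIN3A* and *CTBP1* stayed within 0.05 of no change on the log2 scale. Genes were called where edgeR's quasi-likelihood test gave a false discovery rate (FDR, Benjamini-Hochberg) under 0.01. They stood against a background in which 35.2% of the 10167 genes tested were called, 17.8% higher and 17.4% lower. With 2 called higher and 3 lower, the corepressors were called at a share above that background, but 9 genes are few and no test of the group was made. The median log2 fold change of the 9 genes was -0.0032 against -0.015 over all genes tested, and their median absolute log2 fold change was 0.48 against 0.29. The libraries of both siRNAs did not overlap for 4 of the 9 genes (*CTBP2*, *LCOR*, *TBL1X* and *NRIP1*), against 15.2% of all genes tested.

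**Figure D1:**
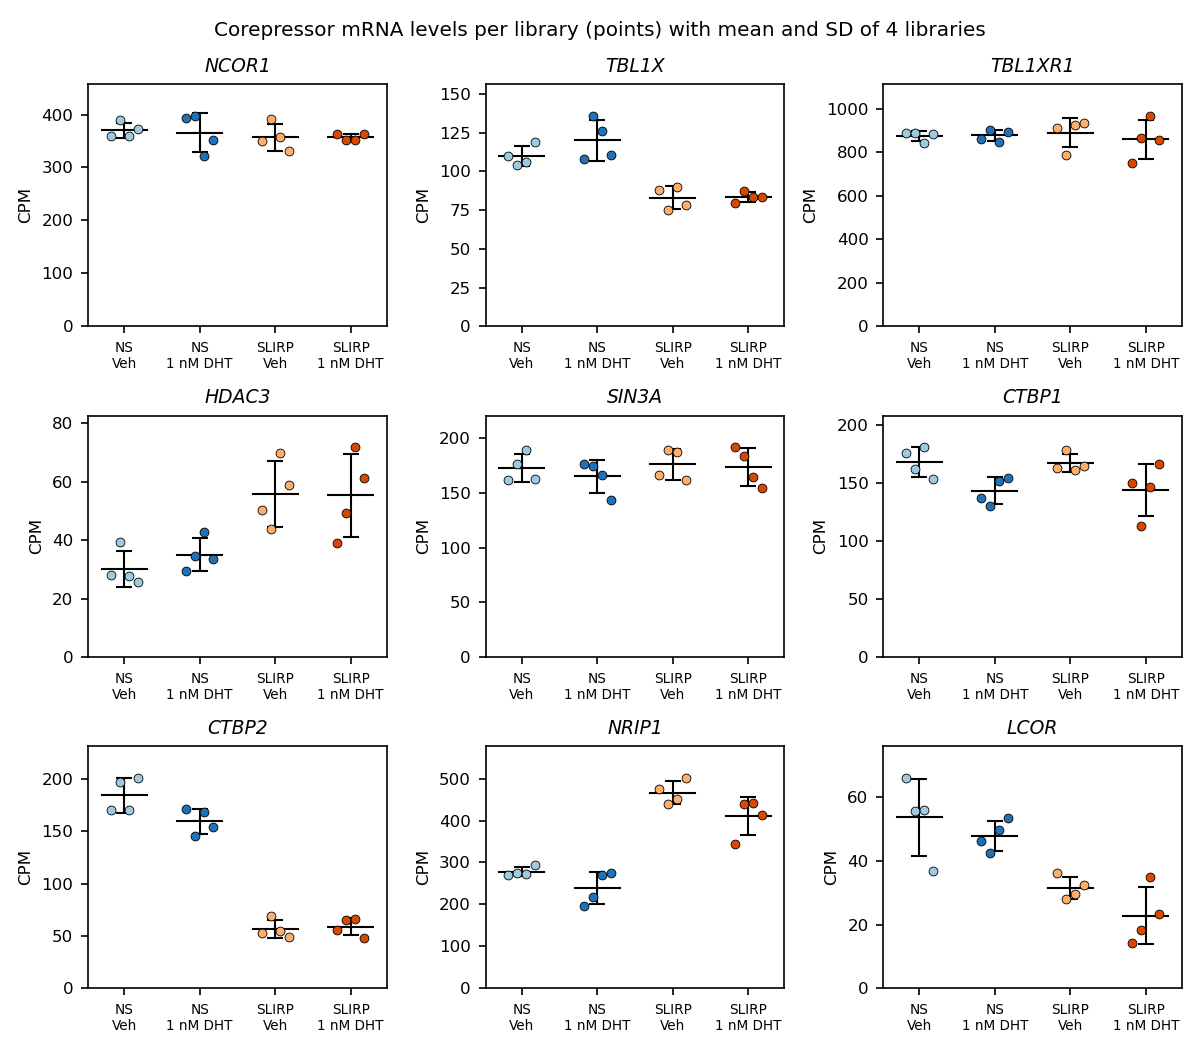
Level of each corepressor gene in CPM (y axis, from 0) in the 16 libraries (points), by group (x axis), with the mean and SD of the 4 libraries of a group (bars). *CTBP2*, *LCOR* and *TBL1X* are lower and *NRIP1* higher in all SLIRP siRNA libraries than in any NS library, *HDAC3* is higher with overlap, and for the other 4 genes the libraries of both siRNAs overlap.

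*NCOR1* (Entrez 9611, hg19 chromosome 17, 15932379 to 16121499, minus strand) encodes the large scaffold that binds unliganded or antagonist-bound receptors. Its level was 360, 389, 359 and 373 CPM in NS-Veh, 394, 397, 321 and 351 CPM in NS-1nM DHT, 349, 391, 358 and 330 CPM in SLIRP-Veh, and 363, 353, 353 and 363 CPM in SLIRP-1nM DHT. The 4 groups overlapped. The log2 fold change with SLIRP siRNA was -0.046 with a standard error (SE) of 0.060 (edgeR FDR 0.56), with a 95% interval from -0.16 to 0.072.

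*TBL1X* (Entrez 6907, chromosome X, 9431360 to 9709077, plus strand) and *TBL1XR1* (Entrez 79718, chromosome 3, 176737128 to 176945788, minus strand) encode the WD-repeat subunits that hold the complex on histones and take part in exchanging corepressors for coactivators. *TBL1X* lay at 110, 104, 106 and 119 CPM in NS-Veh and at 108, 136, 126 and 110 CPM in NS-1nM DHT. With SLIRP siRNA it lay at 88.2, 75.1, 90.1 and 78.0 CPM in vehicle and at 79.6, 87.4, 83.5 and 83.6 CPM in DHT. All 8 SLIRP siRNA libraries were below all 8 NS libraries, and *TBL1X* fell by 0.48 on the log2 scale (SE 0.081, edgeR FDR 1.3e-05), a 1.39-fold decrease. In vehicle alone the log2 fold change was -0.41 (SE 0.12, edgeR FDR 0.0072), which was not called by DESeq2 (FDR 0.020) nor when any of 5 of the 8 vehicle libraries was left out. In DHT alone it was -0.53 (SE 0.11, edgeR FDR 0.00030), a call that was lost under 2 of 11 other settings.

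*TBL1XR1* was counted far more often, between 842 and 904 CPM in the 8 NS libraries (median 885) and between 749 and 966 CPM in the 8 SLIRP siRNA libraries (median 888). Its log2 fold change was -0.0032 (SE 0.056, edgeR FDR 0.97), with a 95% interval from -0.11 to 0.11. The level of *TBL1X* as a fraction of *TBL1XR1* in the same library was 0.117 to 0.150 with NS and 0.0835 to 0.106 with SLIRP siRNA, without overlap.

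*HDAC3* (Entrez 8841, chromosome 5, 141000443 to 141016416, minus strand) encodes the deacetylase that NCoR activates. It lay at 28.0, 39.4, 27.7 and 25.7 CPM in NS-Veh and at 29.4, 34.7, 42.7 and 33.6 CPM in NS-1nM DHT. With SLIRP siRNA it lay at 50.3, 43.8, 70.0 and 58.7 CPM in vehicle and at 39.1, 49.4, 71.9 and 61.1 CPM in DHT. *HDAC3* rose by 0.79 on the log2 scale (SE 0.14, edgeR FDR 1.9e-05), or 1.72-fold. Replicate 1 of SLIRP-1nM DHT lay below replicate 3 of NS-1nM DHT and just below replicate 2 of NS-Veh. The gene had few counts, 14 to 85 per library.

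The rise of *HDAC3* differed in size between replicate numbers. The 4 SLIRP siRNA libraries numbered 3 or 4 lay between 58.7 and 71.9 CPM and the 4 numbered 1 or 2 between 39.1 and 50.3 CPM. With replicates 1 and 2 only, the log2 fold change over both treatments was 0.50 and the call was lost (edgeR FDR 0.054). In vehicle the difference was 0.95 (SE 0.20, edgeR FDR 0.00025) and in DHT 0.69 (SE 0.18, FDR 0.0026). Without replicate 3 of SLIRP-1nM DHT the DHT value was 0.54 and was not called (FDR 0.031). Which replicate numbers belong to which experiment is not given in the sources used here.

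*SIN3A* (Entrez 25942, chromosome 15, 75661720 to 75748183, minus strand) encodes the scaffold of another deacetylase complex that receptors and their corepressors use. It lay between 143 and 189 CPM in the 8 NS libraries (median 170) and between 154 and 192 CPM in the 8 SLIRP siRNA libraries (median 175). The log2 fold change was 0.036 (SE 0.074, edgeR FDR 0.72), with a 95% interval from -0.11 to 0.18.

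*CTBP1* (Entrez 1487, chromosome 4, 1205233 to 1244121, minus strand) and *CTBP2* (Entrez 1488, chromosome 10, 126672886 to 126849739, minus strand) encode dehydrogenase-like corepressors that bind NAD(H) and link DNA-binding repressors, NRIP1 and LCOR to histone-modifying enzymes. *CTBP2* lay at 170, 197, 170 and 201 CPM in NS-Veh and at 171, 145, 168 and 154 CPM in NS-1nM DHT. With SLIRP siRNA it lay at 52.7, 68.9, 55.2 and 49.1 CPM in vehicle and at 56.1, 64.9, 66.0 and 48.3 CPM in DHT. The highest SLIRP siRNA library, at 68.9 CPM, was far below the lowest NS library, at 145 CPM. *CTBP2* fell by 1.59 on the log2 scale (SE 0.095, edgeR FDR 2.2e-14), a 3.01-fold decrease and the 18th smallest p of the 10167 genes tested.

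The fall of *CTBP2* was present under both treatments. The mean of the SLIRP siRNA libraries was 30.6% of the NS mean in vehicle and 36.9% in DHT, and the log2 fold changes were -1.74 (SE 0.12, edgeR FDR 1.2e-13) and -1.45 (SE 0.12, FDR 8.6e-12). Leaving out any 1 library kept the value over all libraries between -1.63 and -1.54.

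Part of the *CTBP2* count cannot be assigned with certainty. In the annotation 34.2% of its exon bases overlap genes on the other strand, mainly *ZRANB1*, and 45.3% of the 50-base words of its longest transcript also occur in transcripts of other genes, *ZRANB1* and *CTBP2* pseudogenes among them. Whether strand was used in counting is not given in the sources used here. *ZRANB1*, looked up after the values of *CTBP2* were seen, lay between 49.7 and 68.0 CPM with NS and between 31.0 and 64.2 CPM with SLIRP siRNA, with a log2 fold change of -0.17 (SE 0.12, edgeR FDR 0.23). Counts per gene do not separate the short corepressor form of *CTBP2* from its longer isoform.

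*CTBP1* was not called. It lay between 130 and 181 CPM with NS (median 154) and between 113 and 179 CPM with SLIRP siRNA (median 162), with a log2 fold change of 0.0071 (SE 0.085, edgeR FDR 0.96) and a 95% interval from -0.16 to 0.17. In the annotation 14.3% of its exon bases overlap antisense loci. The 2 paralogs were counted about equally in NS cells, where the ratio of *CTBP2* to *CTBP1* CPM in a library was 0.938 to 1.31. They were counted unequally in SLIRP siRNA cells, with a ratio of 0.290 to 0.575. Per length of the longest transcript the ratio in NS cells was 0.471 to 0.657, a value that depends on the length used.

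**Figure D2:**
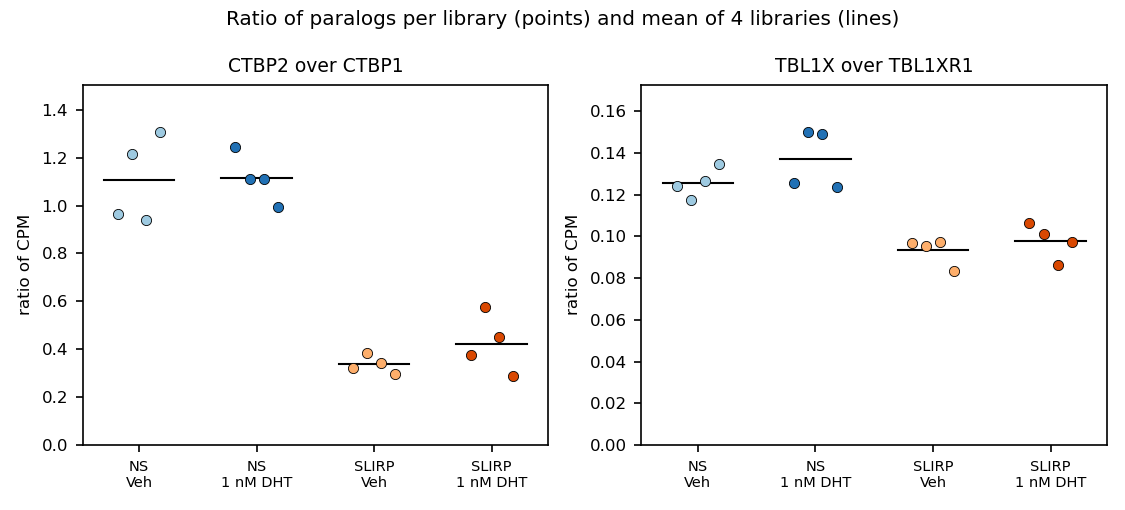
Ratio of the CPM of *CTBP2* to *CTBP1* (left) and of *TBL1X* to *TBL1XR1* (right) in each of the 16 libraries (points), by group, with the mean of 4 libraries (lines). Both y axes start at 0, and for both pairs every SLIRP siRNA library lies below every NS library.

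*NRIP1* (Entrez 8204, chromosome 21, 16333556 to 16438257, minus strand), also called RIP140, encodes a corepressor that binds ligand-bound receptors and recruits CtBP and deacetylases. It lay at 270, 276, 273 and 293 CPM in NS-Veh and at 196, 217, 270 and 274 CPM in NS-1nM DHT. With SLIRP siRNA it lay at 475, 438, 452 and 501 CPM in vehicle and at 344, 440, 442 and 414 CPM in DHT. All SLIRP siRNA libraries were above all NS libraries. *NRIP1* rose by 0.76 on the log2 scale (SE 0.080, edgeR FDR 3.8e-09), or 1.70-fold, and by nearly the same amount in vehicle (0.75, SE 0.096, FDR 9.3e-08) and in DHT (0.77, SE 0.095, FDR 3.0e-08).

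*LCOR* (Entrez 84458, chromosome 10, 98592011 to 98755713, plus strand) encodes the ligand-dependent corepressor, which binds agonist-bound receptors and works through CtBP and histone deacetylases. It lay at 66.0, 55.6, 56.2 and 36.9 CPM in NS-Veh and at 46.1, 42.4, 49.6 and 53.4 CPM in NS-1nM DHT. With SLIRP siRNA it lay at 36.1, 28.2, 29.6 and 32.4 CPM in vehicle and at 14.3, 18.3, 35.0 and 23.3 CPM in DHT. All SLIRP siRNA libraries were below all NS libraries, though replicate 4 of NS-Veh came close, and *LCOR* fell by 0.82 on the log2 scale (SE 0.15, edgeR FDR 4.4e-05), a 1.77-fold decrease.

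The fall of *LCOR* was -1.02 (SE 0.21, edgeR FDR 0.00014) in DHT and -0.66 (SE 0.20, FDR 0.0084) in vehicle. The vehicle call was close to the threshold. It was lost with DESeq2 (FDR 0.013), with limma (FDR 0.023) and when any of 7 of the 8 vehicle libraries was left out, with log2 fold changes from -0.83 to -0.58 over the 8 omissions. *LCOR* had 11 to 85 counts per library, and its coefficient of variation in SLIRP-1nM DHT was 39.3% where counting alone would give 21.7%.

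Under each treatment taken alone the same 5 genes were called in the same directions as over all libraries, against a background of 21.7% of 10684 genes in vehicle and 24.4% in DHT. The vehicle count was the less stable, with 3 of 9 genes called by DESeq2 or by limma, where *LCOR* and *TBL1X* were lost. In these comparisons and over all libraries, *CTBP2* and *NRIP1* stayed called under all alternatives run and with each library left out.

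The next question was whether androgen itself moved the corepressor genes. DHT was active in these cells, since *KLK3*, the androgen target that encodes prostate-specific antigen, rose with DHT by 2.68 on the log2 scale in NS cells (SE 0.14, edgeR FDR 8.2e-15). None of the 9 corepressor genes was called in NS cells, with 0 at FDR 0.01 in edgeR, DESeq2 and limma, against 1.31% of 10367 genes in edgeR. At an unadjusted p under 0.05 stood 3 of the 9, all with lower values in DHT, against 14.3% of all genes tested (1478 of 10367), and no test of the group was made. *CTBP1* had a log2 fold change of -0.24 (SE 0.096, edgeR FDR 0.22), *CTBP2* -0.22 (SE 0.095, FDR 0.26) and *NRIP1* -0.22 (SE 0.095, FDR 0.26). For each of the 3 genes the DHT and vehicle libraries overlapped.

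In SLIRP siRNA cells 0 of the 9 genes were called with DHT in edgeR, DESeq2 and limma, against 1.17% of 10684 genes in edgeR. At an unadjusted p under 0.05 stood 2 of the 9, both with lower values in DHT, against 15.6% of all genes tested (1663 of 10684). *LCOR* had a log2 fold change of -0.46 (SE 0.22, edgeR FDR 0.32) and *NRIP1* -0.19 (SE 0.091, FDR 0.30). *CTBP1* had -0.19 (SE 0.11, FDR 0.41). Intervals of the other genes reached from -0.30 to 0.37 for *HDAC3* and from -0.20 to 0.094 for *TBL1XR1*.

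**Figure D3:**
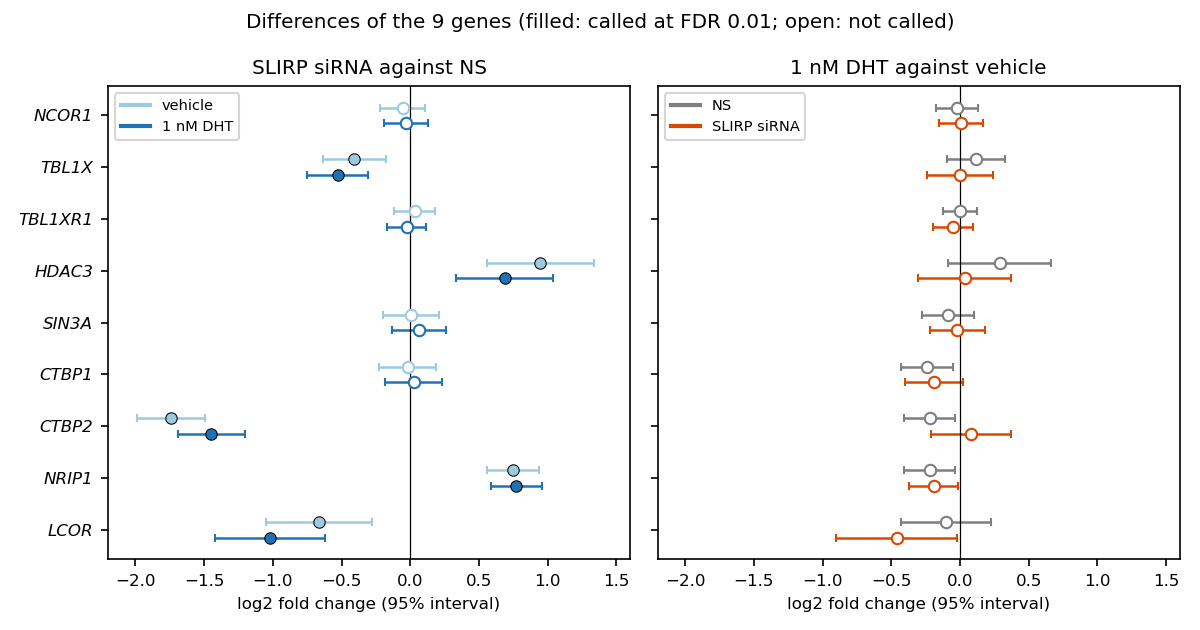
Log2 fold change (x axis) of the 9 corepressor genes with its 95% interval, for SLIRP siRNA against NS in vehicle and in DHT (left) and for DHT against vehicle in NS and in SLIRP siRNA cells (right). Filled points passed FDR 0.01 and open points did not. The same 5 genes are filled at both treatments on the left, and no point is filled on the right.

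The difference in DHT response between both siRNAs was tested by the interaction of siRNA and treatment. For all genes tested 0 were called (0%) by edgeR and 0 by DESeq2, with 388 of 10684 (3.63%) at an unadjusted p under 0.05 in edgeR, and none of the 9 corepressor genes was among these. The largest estimates were those of *LCOR*, -0.36 with a 95% interval from -0.92 to 0.21, and *CTBP2*, 0.29 with an interval from -0.063 to 0.65. That of *HDAC3* was -0.26 with an interval from -0.79 to 0.27. Each of these intervals included 0.

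Levels of different genes were compared per length, as CPM per kilobase of the longest annotated transcript. In the 8 NS libraries *TBL1XR1* was highest, at 107 ± 2.78 CPM per kilobase (SD, n = 8), and *LCOR* lowest, at 3.17 ± 0.567. Between them *CTBP1* (36.7 ± 4.08), *NRIP1* (33.4 ± 4.32) and *NCOR1* (33.4 ± 2.33) overlapped with each other. *SIN3A* followed at 25.1 ± 2.02 CPM per kilobase, and *CTBP2* (20.3 ± 2.25), *HDAC3* (16.9 ± 3.13) and *TBL1X* (16.3 ± 1.57) overlapped with each other. *SIN3A* also overlapped with *NRIP1* above it and with *CTBP2* and *HDAC3* below it. Per length, *TBL1X* had 0.136 to 0.174 times the level of its paralog *TBL1XR1* in the same NS library.

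With SLIRP siRNA the order was another. *NRIP1* stood second at 56.6 ± 5.96 CPM per kilobase (SD, n = 8), with no overlap with *TBL1XR1* (107 ± 9.17) above it or *CTBP1* (36.6 ± 4.68) below it. *CTBP1*, *NCOR1* (32.4 ± 1.55), *HDAC3* (28.7 ± 6.14) and *SIN3A* (26.0 ± 2.18) followed, and each overlapped with its neighbour. *TBL1X* (11.8 ± 0.750), *CTBP2* (6.80 ± 0.940) and *LCOR* (1.70 ± 0.491) came last in that order, without overlap. *CTBP2* thus stood below *TBL1X*, the reverse of the order in NS cells. The places depend on the length used. With the union of annotated exons *CTBP1* stood below *CTBP2* in NS cells, and with SLIRP siRNA *HDAC3* (12.0 CPM per kilobase) stood below *SIN3A* (13.6), the reverse of the order by longest transcript.

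The proteins that work with these corepressors were read from 5 lists with 54 genes, of which 43 had enough counts in the comparison over all libraries. With SLIRP siRNA 8 of the 43 were called higher and 8 lower, against the background of 17.8% and 17.4% of all genes. The median log2 fold change of the 43 genes was 0.041 and the median absolute value 0.21, against -0.015 and 0.29 over all genes tested. None of the partner genes was called in either DHT comparison or in the difference between the responses, with 0 at FDR 0.01 in edgeR, and of 45 tested there 4 were at an unadjusted p under 0.05 in NS cells, 6 in SLIRP siRNA cells and 3 in the difference, against 14.3%, 15.6% and 3.63% of all genes. The 11 genes with too few counts were *CBFA2T3*, *HDAC9*, *SAP30*, *ING1*, *ZEB1*, *ZEB2*, *LCORL*, *NR0B1*, *NR0B2*, *HR* and *HEY1*.

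Among 8 partners of NCoR tested, 2 rose and 1 fell. *BCL6*, a DNA-binding repressor that docks on NCoR, rose by 0.57 (log2, SE 0.10, edgeR FDR 2.6e-05). *GPS2*, a core subunit of the complex, rose by 0.84 (SE 0.21, FDR 0.0016) and *CORO2A*, an actin-binding component, fell by 0.84 (SE 0.16, FDR 7.4e-05). Both had low mean counts, 26.5 and 24.9 per library, and are named after their values were seen. Both calls were lost with replicates 3 and 4 only (FDR 0.12 and 0.019). Of 3 class IIa deacetylases tested, which dock on NCoR and HDAC3, *HDAC5* fell by 0.60 (SE 0.15, FDR 0.0017) and is likewise named after its value was seen. Its call was lost with replicates 1 and 2 only (FDR 0.033) and with 3 and 4 only (FDR 0.066).

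Among 15 SIN3 subunits tested, 2 rose and 2 fell. *SUDS3*, which binds the SIN3 scaffold and its deacetylases, rose by 0.72 (log2, SE 0.087, edgeR FDR 5.4e-08), and the deacetylase *HDAC2* rose by 0.67 (SE 0.073, FDR 6.7e-09), both without overlap between the siRNAs. *SAP30L* fell by 0.80 (SE 0.14, FDR 2.6e-05) and *FAM60A*, another subunit, fell by 0.60 (SE 0.092, FDR 3.4e-06), also without overlap. *HDAC1*, the paralog of *HDAC2*, had a log2 fold change of 0.061 (SE 0.073, FDR 0.52), and *SIN3B*, the paralog of *SIN3A*, -0.059 (SE 0.10, FDR 0.67). The call of *FAM60A* was lost with replicates 3 and 4 only (FDR 0.010, just above the threshold).

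Among 8 genes whose proteins bind CtBP or work in its complex, 1 rose and 2 fell. *WIZ*, a zinc-finger protein that links CtBP to histone methyltransferases, fell by 0.67 (log2, SE 0.10, edgeR FDR 3.1e-06). *RREB1*, a DNA-binding factor, fell by 0.32 (SE 0.076, FDR 0.00092) and *KDM1A*, the histone demethylase LSD1, rose by 0.30 (SE 0.092, FDR 0.0074). These last 2 are named after their values were seen. The call of *RREB1* was lost with replicates 1 and 2 only (FDR 0.044) and with 3 and 4 only (FDR 0.025). That of *KDM1A* was lost with replicates 1 and 2 only (FDR 0.32), with limma (FDR 0.041) and when any of 7 of the 16 libraries was left out.

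Among 9 other corepressors tested, 3 rose and 2 fell. *SAFB2* rose by 1.04 (log2, SE 0.14, edgeR FDR 5.3e-07) and its paralog *SAFB* by 0.61 (SE 0.086, FDR 6.7e-07), both scaffold-attachment proteins that repress steroid receptors, and in neither did the siRNAs overlap. How the authors' counting divided reads between these paralogs was not examined. *PHB2*, a mitochondrial and nuclear repressor of receptors that is named after its value was seen, rose by 0.26 (SE 0.075, FDR 0.0048), a call that was lost with replicates 1 and 2 only (FDR 0.083), with 3 and 4 only (FDR 0.029), with limma (FDR 0.021), without NS-Veh replicate 2 (FDR 0.011) and without SLIRP-Veh replicate 2 (FDR 0.011). *AES*, a Groucho family member, fell by 0.57 (SE 0.072, FDR 1.5e-07) and *SNW1*, a splicing and receptor cofactor, fell by 0.36 (SE 0.11, FDR 0.0069). The call of *SNW1* was lost under 5 of 11 other settings, DESeq2 among them (FDR 0.013), and when any of 10 of the 16 libraries was left out.

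**Figure D4:**
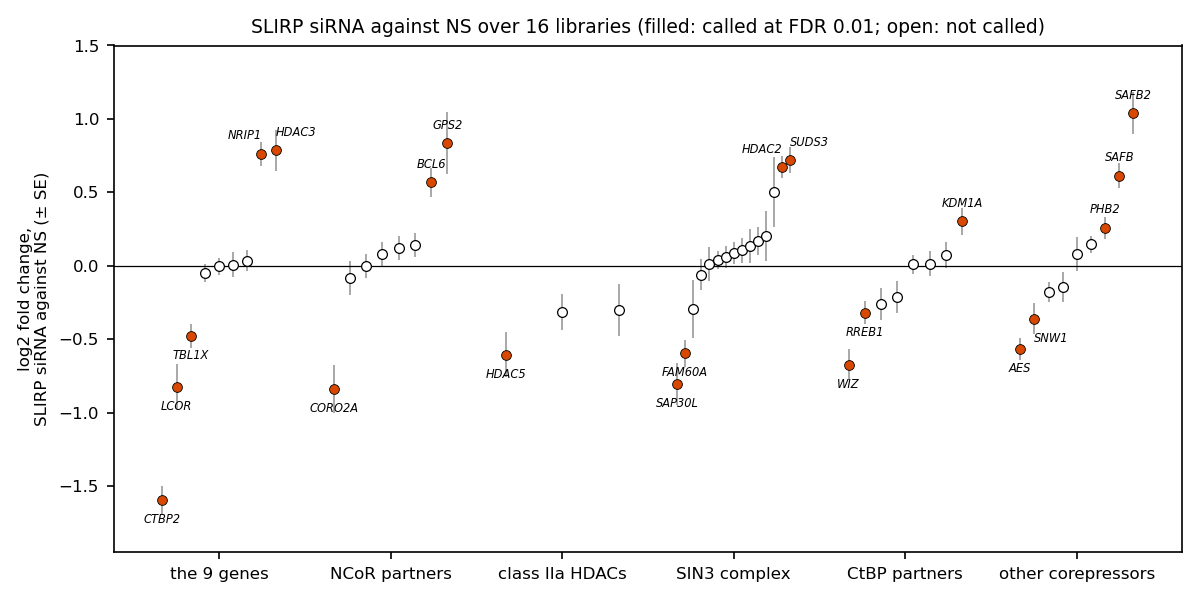
Log2 fold change with SLIRP siRNA against NS over 16 libraries (y axis, with SE) for the 9 corepressor genes and the genes tested in 5 lists of their partners (x axis). Filled and named points passed FDR 0.01. *CTBP2* has the lowest and *SAFB2* the highest value shown, and each list but the class IIa deacetylases holds called genes on both sides of 0.

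The genes with the pattern most like that of *CTBP2*, the corepressor with the smallest p for siRNA, were *RAB6A*, *PICALM* and *NUCKS1*, with Pearson correlations of log2 CPM over the 16 libraries of 0.981, 0.978 and 0.970 among 2697 genes compared. The libraries share the siRNA groups, and within groups the correlations were 0.404, 0.642 and 0.418. *RAB6A*, which encodes a small GTPase of the Golgi, had a mean of 256 CPM with NS and 87.4 CPM with SLIRP siRNA. For *CTBP1*, the corepressor with the smallest p for DHT in NS cells, the closest were *ZNF264* (0.806), *TLE3* (0.773) and *GLUL* (0.762).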

How the data were processed

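The study aligned single 50-base reads to hg19, and the submitters' processing notes name CASAVA and RSEM without versions. The authors deposited estimated counts per gene, rounded to whole numbers, for 20531 entries, and a normalized score for 13148 genes, in which the estimated counts were divided by a library's upper quartile and multiplied by 1000 (used only as an alternative).

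From the estimated counts, edgeR 4.0.16 in R 4.3.3 (TMM, filterByExpr, glmQLFit, glmQLFTest) was fitted to all genes, with Benjamini-Hochberg adjustment and FDR 0.01. SLIRP siRNA was compared with NS over 16 libraries, DHT with vehicle in the 8 NS libraries alone, and other contrasts came from a 4-group model. SE is the absolute log2 fold change divided by the root of F, and 95% intervals are 1.96 SE either side. Log2 CPM used a prior count of 2. Fits were also run on simulated independent libraries without an experiment effect, which cannot show how they perform where libraries share an experiment. Alternatives were DESeq2 1.42.0, upper-quartile and RLE scaling, other filters, the replicate number as a block, treatment as a covariate, other subsets of libraries, FDR 0.05 and limma 3.58.1 on log2 of the score plus 1. A floor of 3 counts is 1.78 to 6.88 CPM and covers counting error only.

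The corepressor genes, partner lists, markers and tests were chosen with earlier results of these data known. Partners were named by rule as the 5 largest rises and falls called over 16 libraries whose mean count reached 30, and likeness was read among genes whose mean count reached 100. Some list genes remain in counts and sums but are not reported here one by one. The 29 entries without a symbol held 0.0353% of counts. Lengths, coordinates and sequences come from GENCODE on hg19. Libraries of a group differed by more than sampling noise, and p-values measure the spread between these libraries. The main fits treated all libraries as independent, although libraries from the same experiment may not be. Which libraries shared an experiment is not given in the sources used here, so experiment was not in the model. The p-values and SEs therefore do not measure the spread between experiments.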

Additional observations from a re-analysis of the deposited data

Results flagged for a closer look

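Of 36 sets of 4 libraries (9 genes in 4 groups), 3 held 1 library far from the other 3 by Dixon's test, which flags about 1 set in 20 by chance. *HDAC3* was at 39.4 CPM in NS-Veh replicate 2, with the other libraries of the group between 25.7 and 28.0 CPM. *TBL1XR1* was at 842 CPM in NS-Veh replicate 3, with the others between 882 and 889 CPM, and at 789 CPM in SLIRP-Veh replicate 2, with the others between 911 and 934 CPM.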

How the results depend on the processing

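Over all libraries 4 or 5 of the 9 genes were called under each alternative, 4 only with replicates 1 and 2, where *HDAC3* was lost. In DHT 3 were called with replicates 1 and 2 only. In vehicle 3 were called by DESeq2, by limma and with replicates 3 and 4 only, 2 with replicates 1 and 2 only, and 3 to 4 with 1 library left out, 3 of them without replicate 1 or 3 of NS-Veh or replicate 2 or 4 of SLIRP-Veh, where *LCOR* and *TBL1X* fell short of the threshold. These subsets hold fewer samples, and the cause was otherwise not tested. No corepressor gene was called for DHT or for the difference in response under any alternative run.

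Genes near no change turned sign without being called. For SLIRP siRNA against NS over all libraries, *TBL1XR1* was at 0.010 (DESeq2), 0.0077 (RLE), 0.0083 (no filter), 0.0095 (at least 10 counts in every library) and 0.094 (replicates 3 and 4), and between -0.024 and 0.026 with 1 library left out. *CTBP1* was at -0.032 (limma) and -0.00091 (treatment as covariate), and between -0.019 and 0.063 with 1 library left out. *NCOR1* was at 0.0049 with replicates 3 and 4, and *SIN3A* between -0.0013 and 0.080 with 1 library left out. The difference in DHT response of *NRIP1* was -0.091 with replicates 3 and 4 and -0.013 with limma, and between -0.032 and 0.13 with 1 library left out.

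With the replicate number as a block, 5, 4 and 5 of the 9 genes were called over all libraries, in vehicle and in DHT, *CTBP1* was at -0.0089 over all libraries, and *NRIP1* at -0.0024 for the difference in response. *LCOR* in vehicle was then at -0.64 (FDR 0.011). The numbers were not taken to pair the samples, since the correlations of same-numbered deviations were 0.029, 0.093, 0.14 and 0.096 on average for the 4 pairs of groups and were not all above 0.1. Each same-numbered correlation was still above the mean of those with other numbers, though often not above every one of them. The gap was smallest for replicate 1 in SLIRP siRNA cells (0.00011 against -0.00051) and largest for replicate 4 in NS cells (0.20 against -0.059). In NS cells the block raised the genes called for DHT from 136 to 270.

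Per length, with the union of annotated exons, the NS means were 74.9 CPM per kilobase for *TBL1XR1*, 30.4 for *NRIP1*, 23.6 for *NCOR1*, 15.5 for *CTBP2*, 14.8 for *CTBP1*, 13.1 for *SIN3A*, 8.30 for *TBL1X*, 7.08 for *HDAC3* and 1.70 for *LCOR*. The longer length of this alternative lowers the value by construction.

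Counts of all genes called also moved. With replicates 1 and 2 or 3 and 4 they were 2057 and 2128 over all libraries (3581 with all) and 1297 and 1465 in vehicle (2319), and 1569 in DHT with replicates 3 and 4 (2607). For DHT in NS cells they were 236 without a filter, 272 at FDR 0.05, 75 with replicates 1 and 2, 27 with limma, and 83 and 87 without replicate 1 or 2 of NS-Veh. For DHT in SLIRP siRNA cells (125) they were 220 without a filter, 309 at FDR 0.05, 75 and 73 with replicates 1 and 2 or 3 and 4, 62 with limma and 73 without replicate 1 of SLIRP-Veh. For the difference in response they were 11 without a filter and 1 and 3 in the replicate subsets.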
